A study of Mus musculus with 3 samples.

Results

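Long noncoding RNAs are transcripts that act without being translated. The set described here held 10 well-known ones: Malat1, Neat1, Gas5, Snhg1, Snhg3, Snhg12, Tug1, Miat, Dancr and Rmst. They were chosen by name, and their probes were found by matching the RefSeq accession of each array probe to the gene symbol. By this match 7 of the 10 RNAs were on the array, out of 20660 named genes. Gas5, Miat and Rmst had no matching probe and were not analysed here. The 7 RNAs had 9 probes on 18 spots per array, since Tug1 had 3 probes, 1 of them with 10 spots, and each of the other 6 genes had 1 probe with 1 spot.

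The cells were J1 mouse embryonic stem cells (mESCs), 1 cell line derived from the inner cell mass of strain 129S4/SvJae. All 3 samples, replicates 1 to 3 of 1 group, came from cells that received the MEK inhibitor PD0325901 (PD) at 1 µM for 24 h. They were grown on gelatin without feeder cells, in medium with leukemia inhibitory factor at 1000 U/mL. Per the study's methods each replicate was an independent experiment. Untreated or vehicle-treated cells were not analysed here, so no value below is an effect of PD. The 3 arrays lay on 1 slide and were scanned at 1 time.

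Marker genes of cell types were also described. Since 72.7% of all named genes were detected, the counts of detected markers cannot decide the cell type. All 9 naive pluripotency markers on the list were detected, with levels from 0.39 to 8.56. A level is the log2 of the processed signal minus the 75th percentile of that array, so 0 is the signal at that percentile. Of the neural markers, 7 of 9 were detected, with levels of the detected ones from -4.14 to 2.76, and of the fibroblast markers 5 of 8, with levels from -4.58 to 0.24. Neurog2, Dcx, Postn and Lum were well above background on 0 arrays and Col3a1 on 1 array.

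Some RNAs of this set stay in the nucleus as structural RNA, and others host small nucleolar RNAs (snoRNAs) in their introns. Malat1 gathers in nuclear speckles, the stores of splicing factors, and Neat1 is the scaffold of paraspeckles. In a host gene the snoRNAs are cut from the introns, and many of them guide the chemical modification of ribosomal RNA, while the spliced exons are often degraded quickly. Tug1 and Dancr act in gene regulation, and Dancr is known for holding back differentiation of progenitor cells. In the RefSeq annotation of GRCm38.p6, 4 of the 7 RNAs on the array contain snoRNA genes: Snhg1 contains 8, Snhg12 contains 4, Snhg3 contains 2 and Dancr contains 1. The other 3, Malat1, Neat1 and Tug1, contain none, and Malat1 contains the small RNA mascRNA that is cut from its end.

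The start sites of the hosts are shown because many snoRNA host genes belong to the class whose transcripts open with an oligopyrimidine tract, the feature that ties translation of ribosomal protein mRNAs to growth signals. Each window runs from 50 bases before the annotated start to 30 bases from it (RefSeq, GRCm38.p6), 5′ to 3′ on the strand of the gene. Capitals mark the longest unbroken run of C and T between 10 bases before the start and 20 bases from it, or the first of them where lengths tie. In Tug1 an unmarked run of the same length lies after the annotated start.
Snhg1: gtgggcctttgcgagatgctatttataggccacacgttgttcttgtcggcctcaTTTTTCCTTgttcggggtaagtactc
Snhg12: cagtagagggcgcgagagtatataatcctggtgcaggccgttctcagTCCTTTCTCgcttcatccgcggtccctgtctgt
Snhg3: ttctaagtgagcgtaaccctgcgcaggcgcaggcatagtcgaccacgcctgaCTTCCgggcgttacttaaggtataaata
Dancr: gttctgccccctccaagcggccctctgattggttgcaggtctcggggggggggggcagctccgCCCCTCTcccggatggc
Malat1: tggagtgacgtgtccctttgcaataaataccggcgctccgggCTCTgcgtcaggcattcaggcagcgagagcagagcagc
Tug1: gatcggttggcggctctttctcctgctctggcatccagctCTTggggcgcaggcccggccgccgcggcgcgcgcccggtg
The windows lie at chr19:8723437-8723516 (Snhg1, plus strand), chr4:132308628-132308707 (Snhg12, plus), chr4:132353657-132353736 (Snhg3, minus), chr5:74093010-74093089 (Dancr, plus), chr19:5802643-5802722 (Malat1, minus) and chr11:3648785-3648864 (Tug1, minus). The run was 9 bases long in Snhg1 and in Snhg12, a length that 7.11% of 32851 annotated mouse starts reached or exceeded. It was 7 bases in Dancr (17.9% of starts), 5 in Snhg3 (46.4%), 4 in Malat1 (68.6%) and 3 in Tug1 (88.3%). The edge of the searched stretch cut the runs of Dancr and Tug1, which reach 10 and 5 bases when followed past it, and the shares of starts refer to runs cut in the same way. The runs of Snhg1, Snhg3 and Dancr began after the annotated start, and that of Snhg12 began 3 bases before it. These are matches of letters in a window and not measured starts.

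The first question was whether the RNAs could be measured in PD-treated cells. All 7 were well above background on each of the 3 arrays, beside 72.7% of all named genes, 74.2% of the protein-coding genes and 40.5% of the 792 genes annotated as long noncoding RNA. All 9 probes were detected too, beside 72.4% of all named probes. The raw signal of the 9 probes was 8.94 to 552 times the local background, and no spot was saturated. For the 27 probe and array values the scanner software gave an error of at most 10.2% of the signal. Levels of different genes are not ranked here, because the brightness of a spot depends also on the sequence of its probe.

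The labelling kit named for these samples primes from poly(A) tails. The mature end of Malat1 and the long form of Neat1 are known to lack such a tail, so their signals describe what the kit could label and not the amount of RNA in the nucleus.

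Malat1 had processed signals of 1016, 582 and 871 on replicates 1 to 3. Replicate 2 was the low one, and replicates 1 and 3 lay closer to each other than to it. The levels were 0.88, 0.19 and 0.73, a mean of 0.60 ± 0.36 (SD, n = 3 here and below), the widest spread among the 7 RNAs. Replicate 1 was 1.62-fold above replicate 2 and 1.12-fold above replicate 3, after scaling. Among the detected named genes, 3.01% had a larger SD than Malat1.

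The spot of Malat1 lay in a part of array 2 with many uneven spots. Array 2 was divided into 48 blocks. Of these, 6 held at least 10 spots that the software marked as non-uniform, and they are called marked blocks here. Arrays 1 and 3 were not divided in this way. They had 25 and 8 non-uniform spots in all, against 187 on array 2. The block of Malat1 held 46 of the 187 such spots, the most of any block. In that block, replicate 2 departed from the mean of replicates 1 and 3 by more than 0.5 log2 units, up or down, in 185 of 682 other detected probes. This was 27.1%, against 3.75% outside the marked blocks. The block as a whole was not shifted down: its median departure was 0.003, with quartiles of -0.27 and 0.18. The departure of Malat1 was -0.62, and 8.36% of the probes in its block lay at or below that value. Around the spot, within 8 rows and 8 columns, 147 other probes had a median departure of -0.12, and 22 of them lay at or below Malat1. The spot itself carried no outlier flag, and its local background on array 2 was 23, the highest of all 27 probe and array values, against 17 on array 1 and 18 on array 3. The part of these features in the low value was not tested. Replicate 2 lay farthest from the others, so the SD of Malat1 had to fall once that array was dropped. It was then 0.11 over the remaining arrays, which is no test of the uneven spots. Dropping array 1 instead gave an SD of 0.38, and dropping array 3 gave 0.49.

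**Figure D1:**
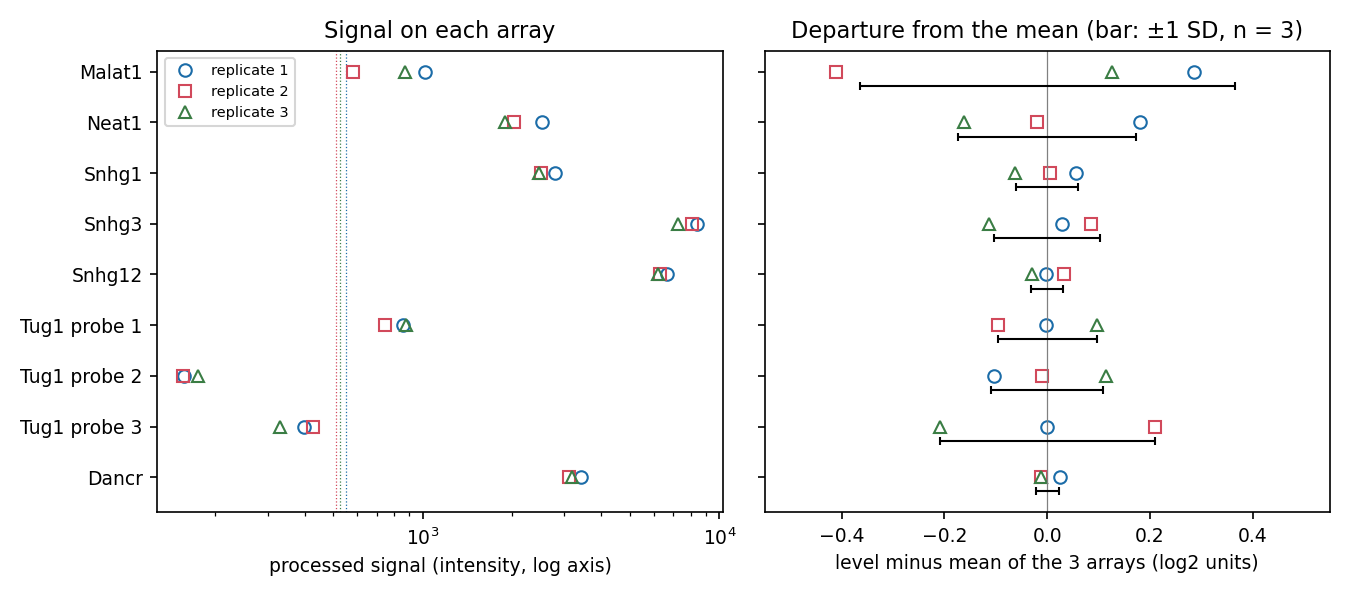
Left, processed signal (log axis) of the 9 probes on each array, with dotted lines at the 75th percentile of each array; right, level minus the mean of the 3 arrays in log2 units, with bars of ±1 SD (n = 3). The square of Malat1 (replicate 2) stands apart at the left, whereas the symbols of Dancr and Snhg12 nearly coincide.

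Neat1 lies next to Malat1 on chromosome 19. Its signals were 2520.1, 2037 and 1899.7 on replicates 1 to 3. Replicate 1 was the high one and replicate 3 the low one, unlike Malat1, where replicate 2 was lowest. The level was 2.01 ± 0.17, with values of 2.19, 1.99 and 1.85. Replicate 1 was 1.27-fold above replicate 3, and 14.3% of detected genes had a larger SD. On array 2 its spot lay in no marked block, which says nothing about its spots on arrays 1 and 3, where no blocks were marked. RefSeq lists 2 transcripts for Neat1, and the probe carries the accession of 1 of them.

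Transcripts of genes for the proteins of these structures were described from lists. All 10 paraspeckle protein genes were detected, at levels from 1.37 to 6.61 and SDs from 0.01 to 0.19. Nono, Sfpq and Pspc1, which carry the paraspeckle core, had levels of 6.08 ± 0.05, 4.45 ± 0.02 and 2.47 ± 0.02. All 8 nuclear speckle protein genes were detected as well, at levels from -0.06 to 6.24 and SDs from 0.02 to 0.24. The splicing factors Srsf1 and Srsf2 had levels of 4.30 ± 0.10 and 3.87 ± 0.07.

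The 4 snoRNA hosts had SDs from 0.02 to 0.10 log2 units over the arrays. Snhg1, which carries box C/D snoRNAs, had signals of 2789, 2500.5 and 2457 on replicates 1 to 3, and a level of 2.28 ± 0.06. Its values of 2.34, 2.29 and 2.22 spanned 0.12 log2 units. Snhg3, the host of the H/ACA snoRNAs Snora73a and Snora73b, had signals of 8392, 8109.5 and 7275. Its levels of 3.93, 3.99 and 3.79 gave 3.90 ± 0.10, with replicate 3 as the low one, and replicate 2 was 1.15-fold above replicate 3.

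Snhg12, a host of snoRNAs of both classes, had signals of 6637, 6311 and 6224 and levels of 3.59, 3.63 and 3.56, that is 3.59 ± 0.03. Its spot also lay in a marked block of array 2, with 24 non-uniform spots, but its departure of 0.05 equalled the median of the block (0.05). Dancr, the host of Snora26, had signals of 3428, 3100.1 and 3194. On the scaled axis its levels were 2.64, 2.60 and 2.60, a mean of 2.61 ± 0.02, and 92.6% of detected genes had a larger SD. For Snhg12 this share was 86.0%, for Snhg1 61.2% and for Snhg3 32.5%.

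**Figure D2:**
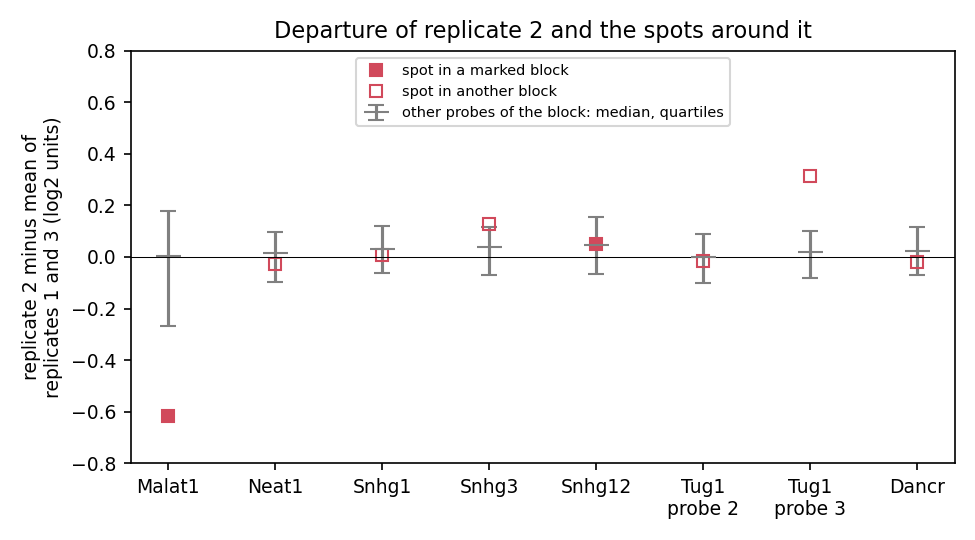
Level on replicate 2 minus the mean of replicates 1 and 3 (log2 units) for the 8 probes with 1 spot (squares, filled where the spot lay in a marked block), with the median and quartiles of the other detected single-spot probes of the same block in grey. Malat1 lies at -0.62, below the lower quartile of its block at -0.27, and Snhg12 lies on the median of its block.

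Other snoRNA hosts were taken from a list of 15 genes, of which 7 were matched on the array. All 7 were detected on all arrays: Snhg5, Snhg6, Snhg7, Snhg10, Snhg16, Snhg17 and Snhg18. Their levels ran from -1.99 to 5.52 and their SDs from 0.01 to 0.11. Snhg5 had a level of 1.47 ± 0.10, Snhg6 of 5.52 ± 0.01, Snhg7 of 2.05 ± 0.11 and Snhg10 of 0.52 ± 0.04.

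The genes for the proteins that bind snoRNAs were detected in 8 of 8 cases, with levels from 2.79 to 6.88 and SDs from 0.03 to 0.08. Fbl, the methyltransferase of box C/D particles, had a level of 4.33 ± 0.08, and its partners Nop56 and Nop58 had levels of 6.65 ± 0.03 and 5.47 ± 0.08. Snu13, which binds the snoRNA of box C/D particles directly, had a level of 6.27 ± 0.03. Of the factors of nonsense-mediated decay, the pathway known to degrade spliced host transcripts such as that of Gas5, 8 of 8 were detected, at levels from 1.40 to 4.02. Upf1, its central helicase, had a level of 2.34 ± 0.03.

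Tug1 was the only RNA of the set with more than 1 probe. The probe with 10 spots had mean signals of 855, 744 and 877 on replicates 1 to 3, after 1 spot with an outlier flag had been left out on each of replicates 1 and 2. The second probe, for another transcript, gave 157, 156 and 175, and the third, for the same transcript as the first, gave 398, 428 and 329. The probes thus differed in which replicate was lowest: replicate 2 for the first, replicate 1 for the second by level, and replicate 3 for the third. Their levels were 0.64 ± 0.10, -1.71 ± 0.11 and -0.47 ± 0.21. RefSeq lists 3 transcripts for Tug1, and which of them the cells used was not tested.

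With 10 spots per array, this probe could be set against the scatter of its own spots. The lowest, median and highest signals were 819, 861 and 887 on replicate 1, 712, 742 and 777 on replicate 2, and 822, 877 and 923 on replicate 3. Before scaling, the spots of replicate 2 lay below all those of the other replicates. As levels they overlapped with replicate 1 but not with replicate 3, and replicates 1 and 3 overlapped. The probe differed between the 3 arrays in limma's moderated F test over 284 such probes (adjusted p = 4.93e-07 after Benjamini-Hochberg adjustment). So did 40.5% of these probes (115), and the test compares these hybridised samples and not conditions. Its error is the scatter of spots within 1 array per sample. Differences in labelling, hybridisation or scaling thus cannot be told apart from differences between the cultures.

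By pairs, replicate 2 was 0.09 ± 0.02 log2 units (SE) lower than replicate 1 (limma adjusted p = 0.00296), where 8.8% of the probes were lower and 23.2% higher. Replicate 3 was higher than replicate 1 by 0.10 ± 0.02 (limma adjusted p = 0.00408, with 6.34% of probes higher and 1.76% lower) and higher than replicate 2 by 0.19 ± 0.02 (limma adjusted p = 9.34e-08, with 12.7% higher and 19.4% lower). The last difference is 1.14-fold. After normexp background correction the pairs with replicate 1 no longer passed. Replicate 2 minus 1 was then -0.04 ± 0.04 (SE, limma adjusted p = 0.613), and replicate 3 minus 1 was 0.11 ± 0.04 (limma adjusted p = 0.405), a difference of similar size with a larger SE. Replicate 3 minus 2 was 0.15 ± 0.04 (limma adjusted p = 0.025). The other Tug1 probe of the same transcript, on 1 spot per array, went the opposite way in each pair. It gave 0.21 log2 units for replicate 2 minus 1, -0.21 for 3 minus 1 and -0.42 for 3 minus 2. The probe for another transcript gave 0.09, 0.22 and 0.12 in the same order.

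**Figure D3:**
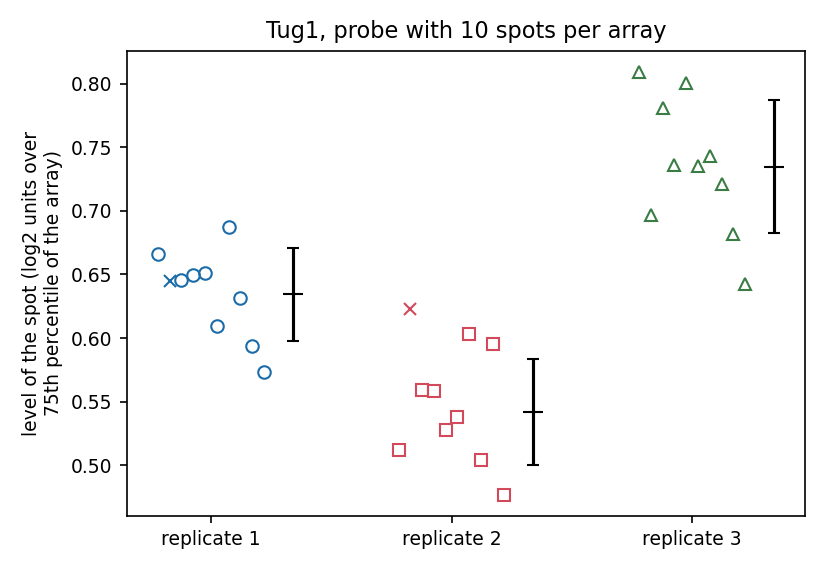
Level of each spot of the 10-spot Tug1 probe on the 3 arrays, in log2 units over the 75th percentile of the array; crosses are spots with an outlier flag, and bars show the mean ± SD of the other spots (9, 9 and 10 spots). By their means replicate 2 lies lowest (0.54) and replicate 3 highest (0.73), and the squares overlap the circles of replicate 1.

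Across the 7 RNAs the median SD over the arrays was 0.097 log2 units. It was 0.073 over all 15026 detected named genes and 0.10 over the 321 detected long noncoding RNA genes. In 0 of the 7 RNAs did the highest and lowest array lie over 1 log2 unit apart, against 0.985% of all detected named genes, 0.946% of the protein-coding and 2.49% of the long noncoding ones. Without replicate 3 the median SD of the 7 RNAs fell to 0.041. The same value for all detected genes is not given here, so this fall cannot be ascribed to the 7 RNAs. Of the 21 differences between pairs of arrays, 14 kept their sign under all 7 settings of scaling, background and outlier spots compared. Among them was every difference of Malat1, Neat1, Snhg3 and, for its 10-spot probe, Tug1. Another scaling moves the genes of an array nearly together, so mainly small differences could turn. The settings all used the same 1 spot of Malat1 per array, so they cannot test its low value on replicate 2. The 7 that turned belonged to Snhg12 and Dancr with 3 each and to Snhg1 with 1. At the 75th percentile scaling they were at most 0.07 log2 units in size. The choice of probe was not among these settings, and the third Tug1 probe had the opposite sign to the 10-spot probe in each pair.

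Last, the set was placed among other long noncoding RNAs from a list of 28, of which 15 were matched on the array. Of these, 8 were detected on all arrays: Ftx, Meg3, Mirg, Kcnq1ot1, Airn, Pvt1, Mir17hg and Mirt1. Meg3, from the imprinted Dlk1-Meg3 region, had a level of 4.57 ± 0.02 and Ftx, a regulator from the X-inactivation centre, one of -3.30 ± 0.09. Xist, Fendrr, Tunar, Firre, Six3os1 and Dlx6os1 were well above background on 0 arrays, and Jpx on 1 array. Of the 8 detected RNAs, Mirg (SD 0.33) and Kcnq1ot1 (0.33) had SDs near that of Malat1. In Mirg replicate 2 was high, at 2.92 against 2.30 and 2.38, and in Kcnq1ot1 replicate 3 was low, at -0.01 against 0.55 and 0.57.

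**Figure D4:**
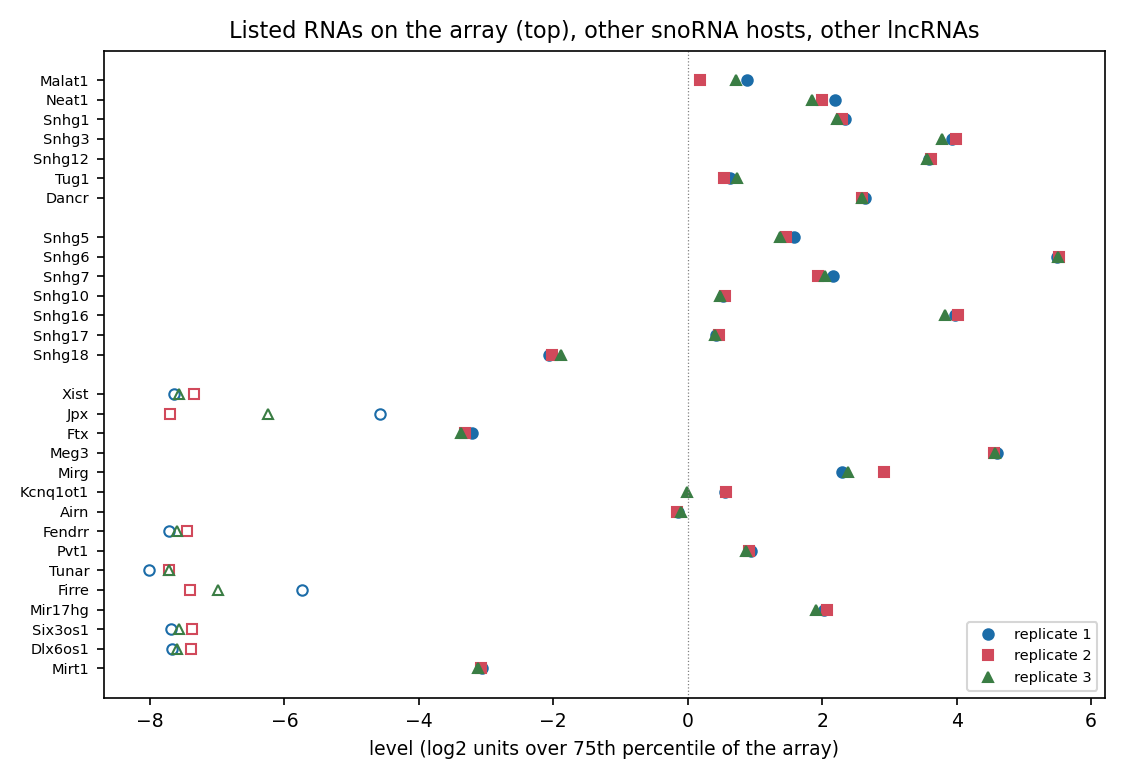
Level of the 7 RNAs (top), 7 other snoRNA hosts (middle) and 15 other long noncoding RNAs (bottom) on each array, in log2 units over the 75th percentile of the array; filled symbols are genes detected on all 3 arrays, open symbols are not. The 7 RNAs and the snoRNA hosts are all filled, and the 7 open genes have mean levels of -6.18 or lower.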

How the data were processed

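Total RNA of 3 PD-treated J1 mESC cultures was labelled with Cy3 and hybridised to 1 Agilent array each. Per the file headers, the intensities of the spots came from Agilent Feature Extraction (version 10.7.3.1), which subtracted the background and removed spatial trends within each array, without scaling between arrays. The authors also deposited a table of log2 values, whose normalization and centring are not given in the sources used here. Each column had a median of 5.18, and its correlation with the log2 processed signals of its array rounded to 1, so the direction matches. The array grid refers to mm9. Probes were named through RefSeq accessions of GRCm38.p6 (27235 of 55681 probes matched).

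The level was the log2 processed signal, averaged over spots that carried no outlier flag, from which the 75th percentile of its array was subtracted. That percentile corresponded to signals of 551, 511 and 527. A probe was detected if at least 50% of its spots were well above background, and the probe with the highest mean level stood for its gene. Between 63.1% and 65.2% of probes were detected per array. The lowest signals well above background were 10.1 to 11.4. The 99th percentile of the negative controls was 16.7, 61.2 and 14.5 on arrays 1 to 3, so array 2 was the highest. The number of arrays limits the precision.

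The 10-spot probes were compared with limma 3.58.1 in R 4.3.3 (lmFit, eBayes). Tested on simulated spots of 284 probes, it recovered 93 of 100 probes shifted by 0.3 log2 units and called 3 others. The simulated spots were independent, without effects of array or position, and the shift was larger than the Tug1 differences. These counts therefore do not give the error rate of the calls on the real arrays. The members and lists were chosen with earlier results of these data known. All RNAs of the set were named, with every undetected list gene and up to 4 examples per list. The other noncoding list genes were named beyond this rule. Values of neighbouring genes are not reported here. Alternatives were other scalings, normexp (offset 50, on median spot and background intensities, as the files hold no mean spot signal), the deposited table, other rules for detection and probes, and leaving out each replicate.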

Additional observations from a re-analysis of the deposited data

How the results depend on the processing

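All 7 RNAs and 9 probes were also detected with the looser flag for positive and significant signals and against the 99th percentile of the negative controls. The same held on at least 1 array and without each replicate (7 to 7 RNAs and 9 to 9 probes). All 7 RNAs passed when every probe was required. These counts are no test of detection. The other rules were looser or used fewer arrays, and all 9 probes had already passed. The highest of the negative-control percentiles, 61.2 on array 2, lay below the lowest signal of the 9 probes, 156. The median SD of 0.097 log2 units stayed within 1.5 times in 8 of 11 alternatives. It was 0.060 with the median of each array in place of the 75th percentile, 0.060 with all detected probes of a gene averaged, and 0.041 to 0.10 when 1 replicate was left out; the cause was not tested. The difference of the 10-spot Tug1 probe between arrays passed in all 6 alternatives, with limma adjusted p-values from 1.8e-10 to 0.0412, and from 6.21e-06 to 0.00692 when 1 replicate was left out. Levels depend on the reference by construction: with the percentile taken over detected probes, Malat1 had a level of -1.32 and Tug1 of -1.28. No paired analysis was possible because the 3 samples used here form a single group. With 1 spot per array, 8 of the 9 probes have no error between spots.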
